A study of Mus musculus with 8 samples.

Results

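The genes described here encode the machinery that carries new proteins into the endoplasmic reticulum (ER), cuts off their signal peptides and attaches N-linked glycans to them. The 37 members were taken by symbol from a fixed list. The rule itself uses no measured value, but the list was drawn up with earlier results of these data known. All 37 are among the 23337 gene symbols of the count tables, and all 37 were among the 14328 genes that were tested. They were measured by RNA-seq in liver of 12-week-old C57BL/6 mice, with 2 libraries in each of 4 groups and 8 libraries in all. Controls, called WT, carried floxed HRD1 alleles without Alb-Cre. KO mice (genotype Hrd1-/-, HRD1Alb in the study's terms) carried the same floxed alleles with Alb-Cre, which acts in hepatocytes from early in liver development. HRD1 is an ER membrane ubiquitin ligase that marks misfolded ER proteins for degradation, and its gene is listed as Syvn1. Livers of each genotype were taken after an overnight fast, with or without 4 h of feeding at its end. Liver cells that never express Alb-Cre keep their HRD1 alleles, and nothing in the labels says whether mice within a group were littermates.

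Secreted and membrane proteins are recognized by the signal recognition particle (SRP) as their signal sequence leaves the ribosome, and the SRP receptor brings the ribosome to the ER. There the chain enters the Sec61 channel, with the TRAP complex, TRAM proteins and Sec62 and Sec63 as partners. The signal peptidase removes the signal sequence, and the oligosaccharyltransferase (OST) moves a preassembled glycan from dolichol pyrophosphate to asparagine residues. Hepatocytes secrete most plasma proteins and use this route heavily. Many genes of the route are known targets of the unfolded protein response, the program that raises ER capacity.

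Promoter sequences are shown because genes of the unfolded protein response are known to carry short DNA elements near their starts. The members shown are Srpr, the only member with a match, and some of the members with a call below. Other members with a call are not shown. RefSeq promoter windows (build GRCm38.p6) matched 26 of the 37 members by symbol and chromosome. The 250 bases before each start were searched on both strands for 4 sequences, and no matches overlapped in the promoters shown. The ER stress element, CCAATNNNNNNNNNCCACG, was in none of the 26 members, in 7 of 16 ER chaperone genes with a window and in 0.13% of 27025 genes with a window. Its second form, in which ATTGG and CCACG stand 1 base apart, was in none of the members, in none of the 16 chaperone genes and in 0.037% of all genes. TGACGTG, the core of the UPR element, was in 1 of 26 members (3.85%), Srpr, in 1 of 16 chaperone genes and in 1.85% of all genes. A single match cannot be told apart from that share. TGATGCAA, the C/EBP-ATF composite site, was in no member and no chaperone gene, against 0.918% of all genes. A match is only a match of letters, and its absence says only that these letters are not in this window. The lines below run 5′ to 3′ on the gene's strand up to the base before the RefSeq start, with matched letters in capitals. They are Srpr at chr9:35211173-35211202 (plus strand), Ssr4 at chrX:73786873-73787022 (plus), Ddost at chr4:138304588-138304737 (plus), Rpn1 at chr6:88084323-88084472 (plus) and Tram2 at chr1:21079226-21079375 (minus). The last is the chaperone gene Creld2 at chr15:88819496-88819645 (plus), which holds the ER stress element on the opposite strand and is given for comparison. The RefSeq start of Srpr lies inside the span annotated for the gene (chr9:35200175-35247973), and only the 30 bases before it are shown, against 150 for the others.
Srpr: tccgggggctgctggtgTGACGTGtcccgc
Ssr4: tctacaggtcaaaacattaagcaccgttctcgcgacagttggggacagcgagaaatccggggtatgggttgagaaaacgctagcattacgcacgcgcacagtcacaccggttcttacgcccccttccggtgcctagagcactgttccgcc
Ddost: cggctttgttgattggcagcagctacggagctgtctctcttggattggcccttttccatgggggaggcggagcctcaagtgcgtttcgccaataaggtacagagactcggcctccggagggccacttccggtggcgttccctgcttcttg
Rpn1: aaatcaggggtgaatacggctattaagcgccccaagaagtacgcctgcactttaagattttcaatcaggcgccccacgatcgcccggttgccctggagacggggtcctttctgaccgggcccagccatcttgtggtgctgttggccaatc
Tram2: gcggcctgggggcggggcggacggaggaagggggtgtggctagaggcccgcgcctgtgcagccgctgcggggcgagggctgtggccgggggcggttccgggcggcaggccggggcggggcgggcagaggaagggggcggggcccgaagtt
Creld2: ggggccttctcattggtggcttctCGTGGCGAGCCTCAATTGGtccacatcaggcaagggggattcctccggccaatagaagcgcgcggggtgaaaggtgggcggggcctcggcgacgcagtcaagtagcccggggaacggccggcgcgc

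Total counts ran from 40210576 to 49117080 per library. Levels are given as normalized CPM, that is counts on a common library size, scaled by edgeR's TMM factors, and 3 counts corresponded to 0.0508 to 0.0788 CPM. The targeted gene went against 1 label. Syvn1 stood at 111 and 99.8 CPM in fasted WT and 32.6 and 31.5 CPM in fasted KO liver, at 637 and 305 CPM in refed WT liver, and at 453 CPM in the library labelled KO-Refed1 and 132 CPM in KO-Refed2. The library labelled KO-Refed1 thus lay between the WT-Refed libraries, and counts per gene do not tell deleted from remaining exons. Ddit3, which encodes the stress factor CHOP, stood at 251 and 241 CPM in the 2 refed KO libraries against 16.1 and 11.3 CPM in refed WT liver. The refed KO libraries also differed from each other, with 3204 genes at least 2-fold apart against 424 to 1141 in the other groups. Hepatocyte markers were high in every library, and the sum of 5 of them was lower in both fasted KO libraries (81843 and 85248 CPM) than in the 2 fasted WT libraries (131630 and 147052 CPM). In refed liver that sum was 63729 CPM in the library labelled KO-Refed1 and 107869 CPM in KO-Refed2, against 108583 and 116768 CPM in WT. Alb held most of the sum in every library, and none of the 5 markers was called between genotypes in fasted or refed liver. The sum of 5 Kupffer cell and macrophage markers was 166 to 354 CPM in the 4 KO libraries and 70.9 to 85.3 CPM in the 4 WT libraries. All 5 were called higher in refed KO liver and 2 in fasted KO liver, where 7.09% and 0.921% of all tested genes were. The sum of 5 stellate cell and fibroblast markers was 308 to 423 CPM in the KO and 139 to 298 CPM in the WT libraries, with 3 called higher in refed KO liver. In the same comparison 2 of 5 cycling markers and 1 of 4 T and NK cell markers were called higher, again against 7.09% of all tested genes. A single call among 4 genes is too few to set apart from that share. No cholangiocyte, endothelial, or plasma and B cell marker was called between genotypes in fasted or refed liver. No hepatocyte or Kupffer cell marker was at 0 in any library. The part of these shifts in the values below was not tested, and in whole liver fewer cells of a type and less RNA per cell cannot be told apart.

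Together the 37 members took 0.268% and 0.276% of the counts in fasted WT liver and 0.389% and 0.387% in fasted KO liver. In refed liver they took 0.396% and 0.368% in WT, 0.579% in the library labelled KO-Refed1 and 0.432% in KO-Refed2. These are shares of raw counts, without TMM factors. Levels per transcript length, as normalized CPM per kilobase averaged over all libraries, spanned from 0.408 for Sec61g to 151 for Ssr4.

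**Figure D1:**
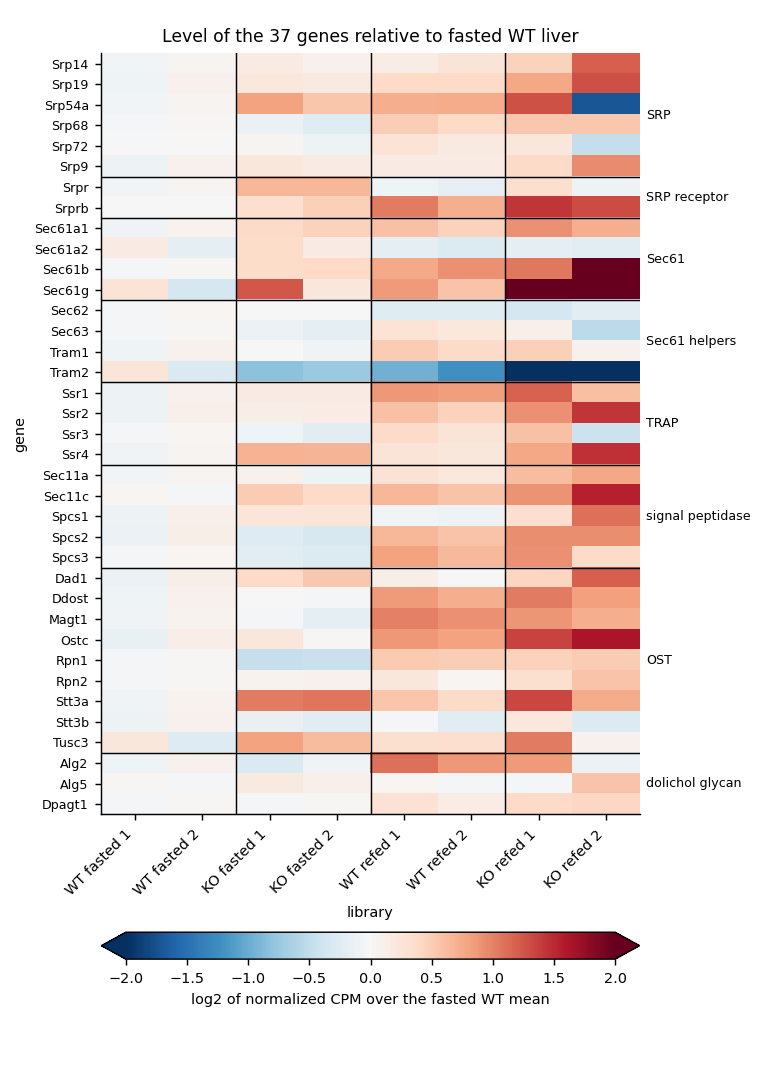
Heat map of the 37 members (rows, by role) in the 8 libraries (columns), coloured by log2 of normalized CPM over the mean of the 2 fasted WT libraries. Red covers most rows of the 4 refed libraries, Tram2 is blue in all 6 libraries other than fasted WT, and KO-Refed2 parts from the library labelled KO-Refed1 in many rows. Colours stop at 2 in either direction.

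The SRP is a ribonucleoprotein whose Srp54 subunit binds the signal sequence, while Srp9 and Srp14 hold the domain that pauses translation. Srp68 and, in the fit without length offsets, Srp19 rose with refeeding in KO liver. Srp14 stood highest per length (55.4 CPM per kilobase), with 33.7 and 36.1 CPM in fasted WT, 39.1 and 37.1 in fasted KO, 38.8 and 41.7 in refed WT, 47.8 in the library labelled KO-Refed1 and 79.5 CPM in KO-Refed2. KO-Refed2 was far above the rest, and every other library lay between 33.7 and 47.8 CPM. Srp19, a subunit needed for SRP assembly, stood at 20.9 and 23.4 CPM in fasted WT, 25.6 and 25.1 in fasted KO, 29.3 and 29.1 in refed WT, 37.9 in the library labelled KO-Refed1 and 54.1 CPM in KO-Refed2. Srp68, which pairs with Srp72 in the particle, stood at 68.3 and 71.3 CPM in fasted WT, 63.7 and 58.8 in fasted KO, 98.3 and 91.7 in refed WT, and 101 CPM in each refed KO library. For both genes the refed libraries of a genotype lay above its fasted ones. Srp54a, the lowest per length of the particle, was listed at 1.10 and 1.19 CPM in fasted WT, 1.99 and 1.69 in fasted KO, 1.90 and 1.92 in refed WT, 2.76 in the library labelled KO-Refed1 and 0.351 CPM (16 reads) in KO-Refed2, but this gene has near-identical copies, Srp54b and Srp54c, which are listed at 0 in all libraries, so its level is uncertain. Srp9 and Srp72 ranged from 38.3 to 78.6 CPM and from 96.2 to 161 CPM.

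The SRP receptor has a peripheral subunit, Srpr, and a membrane anchor, Srprb, and the 2 genes had different patterns. Srprb stood at 26.7 and 27.2 CPM in fasted WT, 34.0 and 37.3 in fasted KO, 55.4 and 44.4 in refed WT, 72.7 in the library labelled KO-Refed1 and 66.7 CPM in KO-Refed2. The 4 groups did not overlap, and the order was fasted WT, fasted KO, refed WT, refed KO. Srpr, with the higher level per length (90.4 against 14.9 CPM per kilobase), stood at 227 and 244 CPM in fasted WT, 372 and 372 in fasted KO, 221 and 211 in refed WT, 297 in the library labelled KO-Refed1 and 219 CPM in KO-Refed2. Fasted KO liver was highest, and KO-Refed2 fell within the WT range.

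The Sec61 channel is a trimer of an alpha, a beta and a gamma subunit. Sec61a1, the pore-forming alpha subunit with the highest level of the channel (77.7 CPM per kilobase), stood at 170 and 186 CPM in fasted WT, 231 and 244 in fasted KO, 266 and 244 in refed WT, 337 in the library labelled KO-Refed1 and 295 CPM in KO-Refed2. Refed libraries were above fasted ones within each genotype. Sec61b, the beta subunit, stood at 15 and 15.4 CPM in fasted WT, 19.7 and 20.1 in fasted KO, 25.7 and 28.7 in refed WT, 31.7 in the library labelled KO-Refed1 and 61.3 CPM in KO-Refed2. Its groups did not overlap either, and KO-Refed2 was well above all others. Sec61g, the gamma subunit, was listed at 0.150 and 0.0973 CPM in fasted WT, 0.293 and 0.145 in fasted KO, 0.222 and 0.184 in refed WT, 0.508 in the library labelled KO-Refed1 and 0.658 CPM in KO-Refed2, on 4 reads in WT-Fasted2 and 30 in KO-Refed2. Why Sec61g was listed so far below Sec61a1 and Sec61b was not tested, so its level is uncertain. The alternative alpha subunit Sec61a2 ranged from 6.51 to 10.2 CPM.

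Among the helpers of the channel, Tram1 stood highest per length (64.3 CPM per kilobase) and Tram2 lowest (0.520). Tram1, which contacts nascent chains at the channel, stood at 156 and 175 CPM in fasted WT, 167 and 157 in fasted KO, 235 and 215 in refed WT, 230 in the library labelled KO-Refed1 and 175 CPM in KO-Refed2. Its paralog Tram2 went the other way, with 7.23 and 4.99 CPM in fasted WT, 3.46 and 3.65 in fasted KO, 3.14 and 2.60 in refed WT, 1.32 in the library labelled KO-Refed1 and 0.614 CPM in KO-Refed2. No 2 groups of Tram2 overlapped, and KO-Refed2 held 28 reads of it against 205 in WT-Fasted2. Sec62 and Sec63, which assist the import of some precursors and couple the channel to the chaperone BiP, ranged from 169 to 221 CPM and from 142 to 246 CPM.

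TRAP has 4 subunits, Ssr1 to Ssr4, that sit beside the channel and help the insertion of some signal sequences. Ssr4 had the highest level per length of all 37 as a mean over the 8 libraries. In WT liver Ssr3 stood above it, at 102 against 100 CPM per kilobase fasted and 127 against 119 refed. Ssr4 stood at 73.4 and 80.2 CPM in fasted WT, 125 and 123 in fasted KO, and 91.6 and 89.9 in refed WT. Its refed KO values were 131 CPM in the library labelled KO-Refed1 and 211 CPM in KO-Refed2. All 4 KO libraries were above all 4 WT libraries. Ssr2 stood at 72.0 and 82.4 CPM in fasted WT, 83.7 and 85.5 in fasted KO, 116 and 106 in refed WT, 146 in the library labelled KO-Refed1 and 208 CPM in KO-Refed2. Ssr1, lowest per length of the complex (18 CPM per kilobase), stood at 108 and 123 CPM in fasted WT, 130 and 129 in fasted KO, 210 and 206 in refed WT, 263 in the library labelled KO-Refed1 and 175 CPM in KO-Refed2. Here the refed KO libraries fell on both sides of the refed WT ones. Ssr3 ranged from 222 to 451 CPM, with both extremes in the refed KO group.

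The signal peptidase joins a catalytic subunit, Sec11a or Sec11c, to the accessory subunits Spcs1 to Spcs3. Spcs2 had like levels in both refed KO libraries, with 64.6 and 75.9 CPM in fasted WT, 58.7 and 56.4 in fasted KO, 111 and 104 in refed WT, and 134 CPM in each refed KO library. Spcs3 stood at 62.1 and 65.8 CPM in fasted WT, 55.1 and 53.0 in fasted KO, 112 and 100 in refed WT, 121 in the library labelled KO-Refed1 and 83.0 CPM in KO-Refed2. For both genes fasted KO liver was lowest and the refed libraries were above the fasted ones. Sec11a stood at 47.7 and 51.0 CPM in fasted WT, 52.1 and 46.0 in fasted KO, 60.5 and 57.1 in refed WT, 75.3 in the library labelled KO-Refed1 and 84.7 CPM in KO-Refed2. Spcs1, the highest per length (93.6 CPM per kilobase), stood at 50.4 and 58.2 CPM in fasted WT, 64.4 and 64.1 in fasted KO, 52.1 and 50.7 in refed WT, 68.8 in the library labelled KO-Refed1 and 117 CPM in KO-Refed2. All 4 KO libraries of Spcs1 lay above all 4 WT libraries, while its refed and fasted WT libraries overlapped. Sec11c ranged from 19.9 to 60.1 CPM.

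The OST transfers the glycan through a catalytic subunit, Stt3a or Stt3b, with Rpn1, Rpn2, Ddost, Dad1 and Ostc as further subunits and Magt1 or Tusc3 as oxidoreductase subunits of the Stt3b form. Magt1 stood at 82.8 and 90.9 CPM in fasted WT, 85.0 and 76.1 in fasted KO, 175 and 164 in refed WT, 161 in the library labelled KO-Refed1 and 144 CPM in KO-Refed2. Ddost stood at 75.4 and 84.9 CPM in fasted WT, 80.2 and 79.0 in fasted KO, 144 and 133 in refed WT, 164 in the library labelled KO-Refed1 and 141 CPM in KO-Refed2. Both genes separated refed from fasted libraries in each genotype and had overlapping genotypes in fasted liver. Ostc, which ties the Stt3a form to the channel, stood at 39.6 and 47.8 CPM in fasted WT, 51.2 and 44.3 in fasted KO, 80.0 and 76.5 in refed WT, 112 in the library labelled KO-Refed1 and 136 CPM in KO-Refed2. Rpn1 stood at 159 and 164 CPM in fasted WT, 117 and 119 in fasted KO, 233 and 226 in refed WT, 223 in the library labelled KO-Refed1 and 230 CPM in KO-Refed2. Rpn1 was thus lowest in fasted KO liver and of like level in all 4 refed libraries. Dad1, the highest per length of the complex (94.2 CPM per kilobase), stood at 57.8 and 68.2 CPM in fasted WT, 83.0 and 91.3 in fasted KO, 68.6 and 62.7 in refed WT, 85.2 in the library labelled KO-Refed1 and 145 CPM in KO-Refed2. Tusc3, the lowest, stood at 4.46 and 3.19 CPM in fasted WT, 6.67 and 5.94 in fasted KO, 4.77 and 4.81 in refed WT, 7.89 in the library labelled KO-Refed1 and 4.06 CPM in KO-Refed2. Its level per length (3.46 CPM per kilobase) was well under that of Magt1 (29.8).

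Stt3a, named here after its values were seen, stood at 95.3 and 105 CPM in fasted WT, 205 and 210 in fasted KO, 147 and 131 in refed WT, 253 in the library labelled KO-Refed1 and 167 CPM in KO-Refed2. Its 4 KO libraries were above its 4 WT libraries. The other catalytic subunit, Stt3b, ranged from 150 to 208 CPM and Rpn2 from 172 to 259 CPM. Of the genes that build the dolichol-linked glycan, Alg5 makes glucosylated dolichol phosphate, Dpagt1 adds the first sugar and Alg2 adds mannose. Alg2, the lowest per length of these (8.64 CPM per kilobase), stood at 18.8 and 21.2 CPM in fasted WT, 16.3 and 19.0 in fasted KO, 42.7 and 36.5 in refed WT, 36.0 in the library labelled KO-Refed1 and 18.4 CPM in KO-Refed2. The 2 refed KO values were about as far apart as refed and fasted WT liver. Alg5, the highest of these (26.1 CPM per kilobase), stood at 35.9 and 34.9 CPM in fasted WT, 40.2 and 37.9 in fasted KO, 36.2 and 34.8 in refed WT, 34.9 in the library labelled KO-Refed1 and 52.3 CPM in KO-Refed2. Dpagt1 was highest in the refed KO libraries, at 54.5 and 54.8 CPM.

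**Figure D2:**
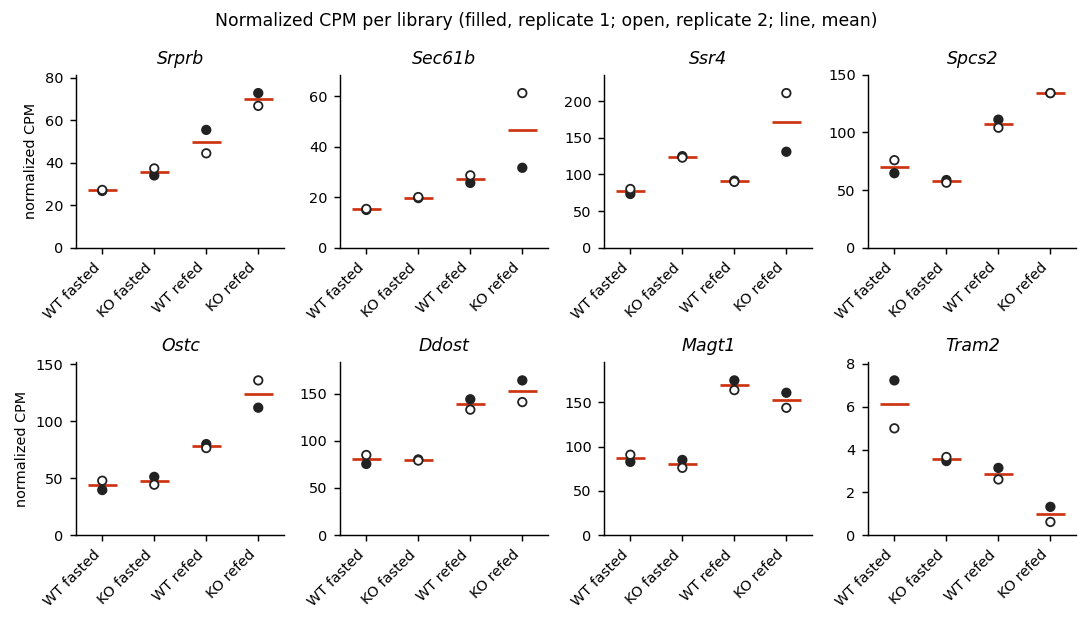
Normalized CPM (y axis, from 0) of 8 members in the 4 groups (x axis), with 1 point per library and a line at the mean. Srprb, Spcs2, Ostc, Ddost and Magt1 are higher in refed than in fasted libraries of both genotypes, Tram2 is lower, and the refed KO points of Sec61b and Ssr4 lie far apart.

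The first comparison asks what refeeding did in control liver. After 4 h of feeding, most of the machinery stood higher in WT liver, by less than 2-fold. Of the 37 members 3 rose at an adjusted p under 0.05 and none fell, where 1.20% and 1.41% of all tested genes rose and fell. At an unadjusted p under 0.05, 15 members were higher and 1 was lower (background 7.94% and 8.38%). Magt1 rose most clearly (log2 difference 0.97, SE 0.15, adjusted p = 0.0335), followed by the receptor anchor Srprb (0.89, SE 0.17, adjusted p = 0.0432) and the OST subunit Ddost (0.79, SE 0.16, adjusted p = 0.0489). The median log2 difference of the members was 0.40, against 0.00 for all tested genes. Both refed libraries lay above both fasted libraries in 29 members and below in 3, where 30.8% and 29.6% of all tested genes did so. The SRP (6 of 6) and TRAP (4 of 4) lay above in full, as did 7 of 9 OST genes. The 3 calls were lost when any 1 of the fasted libraries or of the WT-Refed libraries was left out, and the count was 0 in each of those 6 fits.

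The spread in this test was shared with the refed KO group, whose libraries differed most. When that group was left out of the fit, which was chosen after seeing the data, 17 members rose and 1 fell with refeeding in WT liver (background 8.91% and 9.12%). Beside the 3 above, these were Sec61a1, Sec61b, Tram1, Ssr1, Ssr2, Srp19, Srp68, Spcs2, Spcs3, Sec11c, Rpn1, Stt3a, Ostc and Alg2, and Tram2 fell. In that fit of 6 libraries the largest increases were those of Alg2 (log2 difference 0.99, adjusted p = 0.00324) and Magt1 (0.97, adjusted p = 0.00182), and that of Tram2 was -1.09 (adjusted p = 0.0192). These log2 differences moved by 0.01 or less from those of the fit with 8 libraries, and the fits differ in their spread.

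In the fit of 8 libraries more members passed with refeeding in KO than in WT liver, and so did more of all tested genes. A limit is that Syvn1 in the library labelled KO-Refed1 went against its label. In KO liver 12 members rose and 1 fell, where 5.43% and 5.05% of all tested genes did. At an unadjusted p under 0.05, 19 were higher and 3 lower (background 17.2% and 14.5%). Of the 12 that rose at an adjusted p under 0.05, 3 were among 5 signal peptidase genes and 4 among 9 OST genes. The SRP held 2 of 6, its receptor 1 of 2, and the Sec61 channel and TRAP 1 of 4 each. Ostc rose 2.60-fold (log2 1.38, SE 0.18, adjusted p = 0.00865), Spcs2 by 2.33-fold (log2 1.22, SE 0.15, adjusted p = 0.00774), and Rpn1 by 1.92-fold (log2 0.94, SE 0.14, adjusted p = 0.0117). The others that rose were Srprb (log2 0.97, adjusted p = 0.0170), Ddost (0.94, 0.0154), Magt1 (0.92, 0.0158), Ssr2 (1.06, 0.0228), Srp68 (0.72, 0.0255), Sec11a (0.71, 0.0326), Spcs3 (0.92, 0.0343), Srp19 (0.86, 0.0375) and Sec61b (1.22, 0.0409). Tram2 fell by 1.86 on the log2 scale (SE 0.38, adjusted p = 0.0286). With offsets for transcript length, Srp19 (0.35, adjusted p = 0.122) and Sec11a (0.36, adjusted p = 0.137) did not pass, and the differences of Sec61b (0.55, adjusted p = 0.0182) and Ssr2 (0.60, adjusted p = 0.0235) were smaller.

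The median of the members was 0.49 against 0.02 for all tested genes. Both refed KO libraries lay above both fasted KO libraries in 23 members and below in 4 (background 29.2% and 29.5%), and all 5 signal peptidase genes were among the 23. Without KO-Refed2, 19 members rose and 1 fell (background 10.7% and 9.0%). Several of these 19 did not pass with both libraries, and among them Ssr1 (log2 1.02) and Alg2 (1.02) had the largest differences. With KO-Refed2 as the only refed KO library, the differences of Ssr1 and Alg2 were 0.43 and 0.05. Without the library labelled KO-Refed1, 23 rose and 5 fell (background 24.8% and 26.6%). No call passed without KO-Fasted1 or without KO-Fasted2, and leaving out any 1 WT library left 4 to 6 higher.

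**Figure D3:**
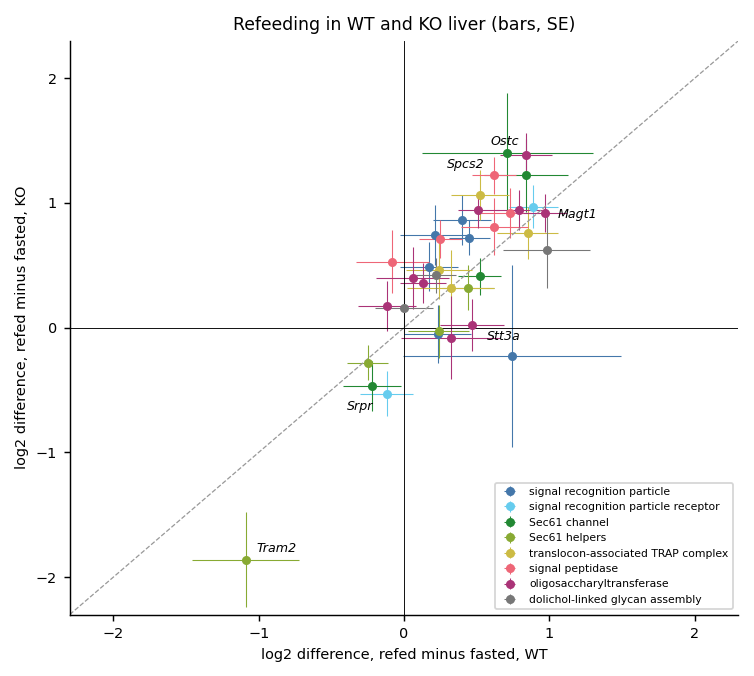
Log2 difference of refed against fasted liver for each of the 37 members in WT (x axis) and KO (y axis), with SE bars, coloured by role and with a dashed line at equal differences. Most points lie in the upper right, with Ostc and Spcs2 above the line, Magt1 near it and Tram2 at the lower left.

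Whether refeeding acted differently in the 2 genotypes was tested by the interaction. No member passed it (0 higher and 0 lower), and neither did any of the 14328 genes (0%). At an unadjusted p under 0.05 it gave 1 member higher and 0 lower (background 4.41% and 4.03%). DESeq2 called 0 members, where it called 0.482% and 0.406% of its tested genes higher and lower. The interaction of Spcs2 was 0.60 (SE 0.21, adjusted p = 0.583) and that of Ostc 0.54 (SE 0.25, adjusted p = 0.600). Without KO-Refed2 the count was again 0 in both directions (background 0.458% and 0.232%), while without the library labelled KO-Refed1 it was 14 higher and 8 lower (background 15.4% and 18%). 

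In refed liver the genotypes were compared next. Most members stood somewhat higher in KO than in WT, but 2 passed the threshold: Ssr4 rose 1.88-fold (log2 0.91, SE 0.23, adjusted p = 0.0445) and Tram2 fell by 1.55 on the log2 scale (SE 0.39, adjusted p = 0.0444). That was 1 of 37 in each direction, where 7.09% and 4.84% of all tested genes rose and fell, so the share called was under the background. At an unadjusted p under 0.05, 14 members were higher and 1 lower (background 18.8% and 14.5%). The median was 0.30 against 0.04 for all tested genes. Both KO libraries lay above both WT libraries in 19 members and below in 4 (background 30.7% and 30.1%). The next smallest adjusted p-values were those of Ostc (log2 0.66, SE 0.18, adjusted p = 0.0533) and Spcs1 (0.85, SE 0.25, adjusted p = 0.0649). Both calls were lost when any 1 of the 6 libraries outside the refed KO group was left out.

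This comparison rests on 2 KO libraries that differed by transcript length. Log2 of KO-Refed2 over the library labelled KO-Refed1 fell with length across all genes (Spearman's rho -0.569) and across the members (rho -0.746, n = 37 genes measured in the same 2 libraries), against -0.306 to 0.242 across the members in the other groups. All 13 members with transcripts under 1500 bases were higher in KO-Refed2, by a median of 0.58, and 18 of the 24 longer ones were lower, with a median of -0.42. The ribosomal protein genes, which are short, had a median of 1.03 in the same ratio. The part of transcript length in the difference between genotypes was not tested beyond the fits below.

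**Figure D4:**
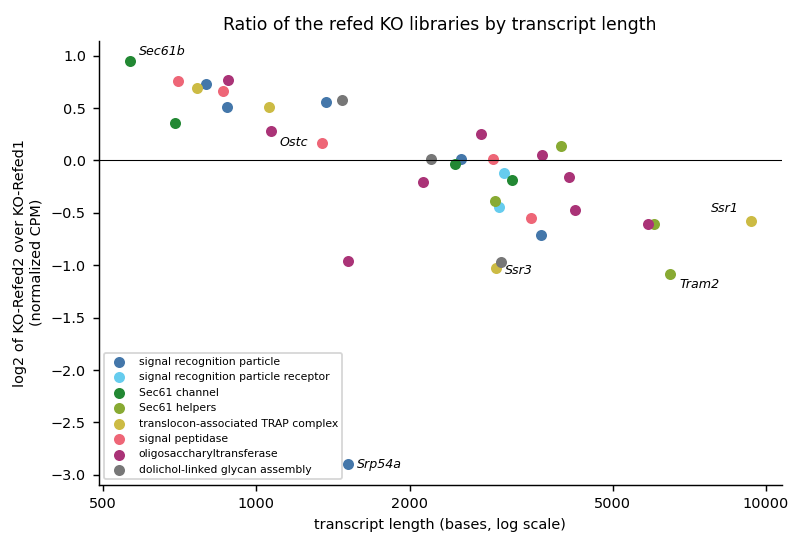
Log2 ratio of normalized CPM in KO-Refed2 over the library labelled KO-Refed1 (y axis) against transcript length in bases (x axis, log scale) for the 37 members, coloured by role. The 13 members under 1500 bases lie above 0, and most longer members lie below it, with Srp54a lowest.

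Each refed KO library was also taken alone against the 2 refed WT libraries, which both fits share. With the library labelled KO-Refed1 alone, 8 members rose and 1 fell (background 11.9% and 11.7%). With KO-Refed2 alone, 15 rose and 8 fell (background 25.0% and 27.8%). A lone library has no spread of its own, and the fit lends it that of the other groups. Ssr4 differed by 0.52 (adjusted p = 0.0147) with the first and 1.21 (adjusted p = 0.000167) with the second, and Tram2 by -1.12 (adjusted p = 0.0379) and -2.23 (adjusted p = 0.00169). The longer Stt3a differed by 0.86 with the library labelled KO-Refed1 and 0.26 with KO-Refed2. With offsets for transcript length in all libraries, Stt3a (0.89, adjusted p = 0.00635), Srprb (0.50, adjusted p = 0.0398) and Ssr1 (0.53, adjusted p = 0.0441) rose, Tram2 fell (-1.28, adjusted p = 0.0199), and Ssr4 (0.34, adjusted p = 0.0915) did not pass.

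**Figure D5:**
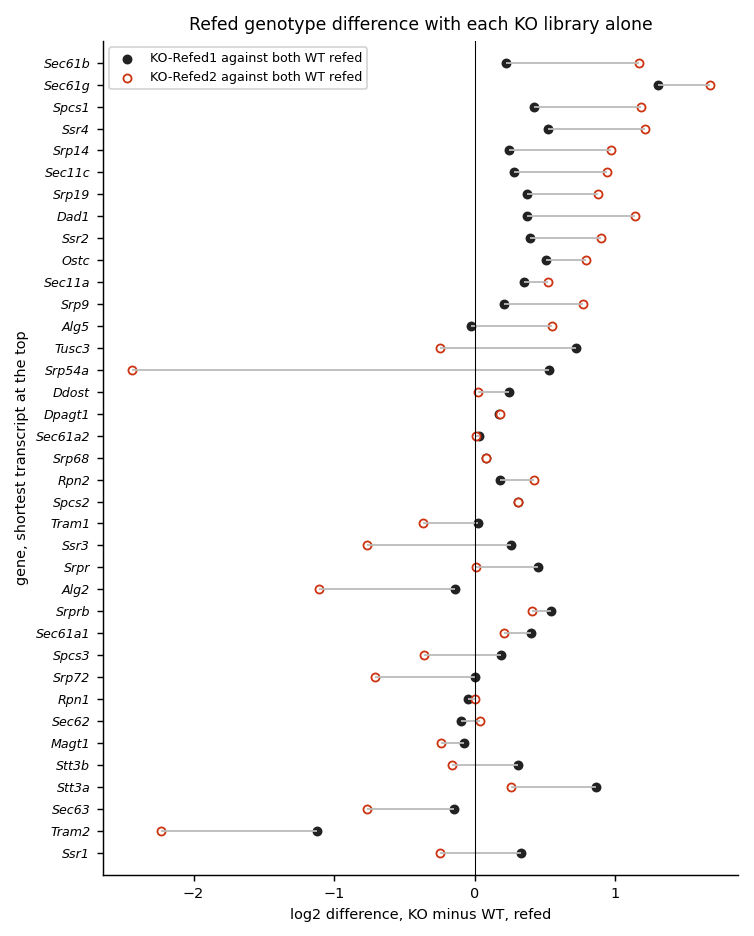
Log2 difference of KO against WT in refed liver for each member (rows, shortest transcript at the top), with the library labelled KO-Refed1 alone (filled) and KO-Refed2 alone (open). Open points lie to the right of filled ones in the short genes of the upper rows and mostly to the left in the long genes below.

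In fasted liver no member passed the threshold (background 0.921% higher and 0.433% lower). At an unadjusted p under 0.05, 5 members were higher and 1 lower (background 10.9% and 7.43%). DESeq2 called 2 higher, Stt3a and Srpr, and 1 lower, Rpn1 (background 4.41% and 3.22%). The largest difference was that of Stt3a (log2 1.05, SE 0.22, adjusted p = 0.0664). The median was 0.13 against -0.02 for all tested genes. Both KO libraries lay above both WT libraries in 18 members and below in 8 (background 30.6% and 34.2%).

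In the fit without the refed KO group, chosen after seeing the data, 8 members were higher and 2 lower in fasted KO liver (background 10.3% and 11.9%), on log2 differences that again moved by 0.01 or less. Stt3a (1.06, adjusted p = 0.00357), Ssr4 (0.69, adjusted p = 0.00517), Srpr (0.66, adjusted p = 0.00612), Sec11c (0.46, adjusted p = 0.0164), Sec61a1 (0.42, adjusted p = 0.0255), Sec61b (0.40, adjusted p = 0.0265), Dad1 (0.47, adjusted p = 0.0275) and Tusc3 (0.72, adjusted p = 0.0404) rose. Rpn1 (-0.45, adjusted p = 0.0139) and Tram2 (-0.78, adjusted p = 0.0467) fell. The OST subunits Stt3a and Rpn1 thus moved in opposite directions between the same 4 libraries. The scale of the genotype difference depended on TMM. With library totals alone the median of the members was 0.51 in fasted liver, against 0.36 for all tested genes, and 0.50 against 0.26 in refed liver.

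Genes near the machinery were counted in the same fits. Unless said otherwise, the calls here and for the chaperones below used 8 libraries and no length offsets. Those that involve refed KO liver rest on 2 libraries that differed by transcript length. Of 33 other N-glycan genes 5 rose and none fell in refed KO against refed WT liver (background 7.09% and 4.84%). They include Pmm1, a phosphomannomutase (log2 1.64, SE 0.24, adjusted p = 0.0130), Alg8, a glucosyltransferase of the dolichol route (0.76, SE 0.15, adjusted p = 0.0286), and Krtcap2, an OST subunit (1.19, SE 0.25, adjusted p = 0.0303). With refeeding, 1 rose in WT (background 1.20%), the mannosyltransferase gene Alg12 (1.57, SE 0.21, adjusted p = 0.0230). In KO 5 rose and 1 fell (background 5.43% and 5.05%), led by Alg12 (1.42, SE 0.21, adjusted p = 0.0119). The one that fell was Pgm3, a phosphoglucomutase of UDP-N-acetylglucosamine synthesis (-0.90, SE 0.23, adjusted p = 0.0496). Of 22 tested genes of other ER insertion routes, 1 rose in refed KO liver (background 7.09%), Get4 of the tail-anchored protein route (0.71, SE 0.19, adjusted p = 0.0497). None of them passed with refeeding. None of either list passed in fasted liver with 8 libraries (background 0.921% higher and 0.433% lower). Of 81 tested ribosomal protein genes, 37 rose and none fell in refed KO liver (background 7.09% and 4.84%). Their median was 1.18, and 0.59 without KO-Refed2.

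ER chaperones fold the proteins that the machinery delivers, and many rose with refeeding. Of 21 genes 8 rose in WT liver (median 1.0) and 13 in KO liver (median 1.58), where 1.20% and 5.43% of all tested genes rose. None of the 21 fell. Manf, a small ER-resident protein that is secreted under ER stress, rose by 2.49 on the log2 scale in WT (SE 0.26, adjusted p = 0.0120) and 3.66 in KO liver (SE 0.27, adjusted p = 0.00346), and Calr, a lectin chaperone for N-glycoproteins, by 1.08 (SE 0.17, adjusted p = 0.0310) and 2.34 (SE 0.18, adjusted p = 0.00346). Between refed genotypes 2 of the 21 rose (background 7.09%), the disulfide isomerase Pdia6 (0.87, SE 0.19, adjusted p = 0.0332) and Manf (1.10, SE 0.25, adjusted p = 0.0358). None passed in fasted liver (background 0.921% higher and 0.433% lower). Whether the chaperones and the machinery differed in response was not tested.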

How the data were processed

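Liver total RNA (TRIzol) from WT and KO mice was sequenced on an Illumina NextSeq instrument, with 1 lane per sample. The authors deposited raw counts, whole numbers per gene symbol, without normalization. CPM was computed from the library total times its TMM factor. The paper's methods name ERANGE for counting, while the submitters' processing notes list cutadapt, STAR, HTSeq and DESeq2 with build mm10, so the counter is uncertain. The annotation and the use of strand are not given in the sources used here.

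From the counts, genes were kept by edgeR's filterByExpr (minimum count 10, minimum total 15), TMM factors were computed, and 1 quasi-likelihood model with 4 groups was fitted to the 8 libraries (R 4.3.3, edgeR 4.0.16). For 5 contrasts p-values were adjusted by Benjamini-Hochberg over the 14328 tested genes, and calls use an adjusted p under 0.05. SE is the size of the log2 difference over the square root of F, and log values use a prior count of 1. A permutation test of 2 against 2 libraries could not go below 0.333. Nothing says that the 2 libraries of a group came from separate mice, so p-values measure the spread between libraries. Alternatives were RLE factors, DESeq2 1.42.0, limma-trend (limma 3.58.1), no count filter, a replicate block, length offsets with and without the block, and each library left out. Library totals alone and a fit of 6 libraries were added after seeing the data. Transcript lengths and gene names came from GENCODE M21, matching 20953 symbols directly and 1920 by an older symbol. Scripts were tested on simulated data. Figures used matplotlib 3.10.9.

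The members and gene lists were chosen with earlier results of these data known. Members with a call, and the lowest and highest per length of each role, are given per library; of other lists at most 3 genes per direction, by smallest adjusted p. Counting error limits low genes such as Sec61g.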

Additional observations from a re-analysis of the deposited data

How the results depend on the processing

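No call of a member reversed under any alternative. Of the 18 calls, RLE factors, DESeq2 and limma-trend kept 18 each, no count filter 17, and the length offsets, with or without the block, 15 (Ssr4 in refed liver, and Srp19 and Sec11a for refeeding in KO, were lost). With library totals alone 13 remained, without Tram2 in either comparison. In fasted liver the members higher in KO numbered 2 with DESeq2, 3 with length offsets, 1 with length offsets and the block, 4 with library totals and 8 in the fit of 6 libraries, and those lower 1 with DESeq2 and 2 with 6 libraries, where the fit of 8 gave 0. In refed liver the count higher went from 1 to 6 (DESeq2), 3 (length offsets), 2 (with the block) and 11 (library totals), and library totals left 0 lower. For refeeding in WT liver the count higher went from 3 to 10 with DESeq2, 10 with length offsets, 7 with the block added, 2 without a count filter, and 17 with 6 libraries, which also gave 1 lower. For refeeding in KO liver the count lower went from 1 to 2 with DESeq2 and with length offsets and to 0 with library totals.

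Libraries of the same number did not pair (r = 0.0161 to 0.179). With the replicate block, 15 of 18 calls remained: the count higher was 0 in refed liver (Ssr4 lost) and 1 for refeeding in WT (Srprb and Ddost lost), with 12 higher and 1 lower for refeeding in KO.

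With 1 library left out, the ranges were 0 to 8 higher and 0 to 2 lower (fasted), 0 to 15 and 0 to 8 (refed), 0 to 17 and 0 to 1 (refeeding, WT), 0 to 23 and 0 to 5 (refeeding, KO), and 0 to 14 and 0 to 8 (interaction). The highest counts came without the library labelled KO-Refed1. For the fasted comparison and for refeeding in WT, the counts without KO-Refed2 were equally high. Without KO-Refed2 the counts were 8 and 2, 8 and 1, 17 and 1, 19 and 1, and 0 and 0 in the same order. Without KO-Fasted1 or KO-Fasted2 no call remained; 6 remained without WT-Fasted1, 7 without WT-Fasted2, 4 without WT-Refed1 and 4 without WT-Refed2. Over all alternatives the adjusted p of Ssr4 (refed) ran from 0.000167 to 0.235, that of Tram2 (refed) from 0.00169 to 0.217, that of Magt1 (WT refeeding) from 2.58e-06 to 0.240 and that of Spcs2 (KO refeeding) from 1.82e-10 to 0.104. The values of genes of few reads (Sec61g, Srp54a) are limited by counting error, and their true levels are uncertain.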
